A study of Arabidopsis thaliana with 58 samples.

Results

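The H3K9me2 peaks of the chromosome 3 pericentromere are the 806 of the 4144 deposited flower peaks whose summit, the base of highest signal, lay at or after base 11100001 and at or before base 15900000 of chromosome 3. The borders of this stretch of 4800000 bases were drawn from its low density of protein-coding genes and not from H3K9me2. The nearest peak inside the left border spanned chr3:11115941-11120498, with a fold enrichment of 3.61, and the nearest outside it spanned chr3:11098593-11099036, with 2.85. At the right border the last peak inside spanned chr3:15859901-15861240, with a fold enrichment of 2.504, and the first outside chr3:15916213-15917511, with 2.31.

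The chromatin came from unopened flower buds of Arabidopsis thaliana Col-0 wild type, the reference accession of the species, taken from plants 4 to 5 weeks old. Nuclei were cross-linked with formaldehyde in vitro and chromatin was precipitated with an antibody against H3K9me2, and the precipitated DNA was sequenced as reads of 50 bases (ChIP-seq). There was 1 such library, so there are no replicates, and every value below describes this library and was tested against nothing. An H3 library from the same sheared chromatin, the leaf samples and the other samples of the series, 57 in all, were not analysed here.

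H3K9me2, histone H3 dimethylated at lysine 9, is the main histone mark of silent chromatin in plants. In Arabidopsis it is written by SUVH4 (also called KRYPTONITE), SUVH5 and SUVH6, which bind methylated DNA, and it is read by the DNA methyltransferases CMT2 and CMT3, so that the mark and non-CG DNA methylation maintain each other. CHG sites, in which H is any base but G, are the main target of CMT3. The pericentromere, the stretch around the centromere, is dense in transposable elements and their remains and poor in genes, and its genes lie as islands in heterochromatin.

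The 3 summits of highest fold enrichment are shown first, since they are the points where the antibody signal stood highest over background in this stretch. Each is the summit base with 75 bases on either side, read from the plus strand of TAIR10.1, with every CAG, CTG, CCG and CGG in capitals. CAG and CTG are the reverse complement of each other, as are CCG and CGG, so the capitals hold the CHG sites of both strands, and CCG and CGG share bases wherever CCGG occurs.
chr3:12494210-12494360: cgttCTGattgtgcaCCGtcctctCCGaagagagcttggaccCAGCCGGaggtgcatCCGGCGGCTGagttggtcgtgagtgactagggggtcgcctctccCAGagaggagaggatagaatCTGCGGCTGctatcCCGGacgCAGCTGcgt
chr3:13409488-13409638: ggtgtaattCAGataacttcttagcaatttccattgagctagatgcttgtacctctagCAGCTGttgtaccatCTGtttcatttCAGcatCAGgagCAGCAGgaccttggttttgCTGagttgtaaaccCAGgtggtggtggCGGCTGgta
chr3:12480436-12480586: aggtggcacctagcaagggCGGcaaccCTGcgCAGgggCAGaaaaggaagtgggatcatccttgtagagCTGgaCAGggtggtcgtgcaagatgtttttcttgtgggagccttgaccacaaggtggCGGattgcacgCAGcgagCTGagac

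The first lies in pseudogene locus AT3G30810 and held 18 CHG words, the second in AT3G32890 with 12, and the third in AT3G30802 with 9. The middles of the 3 longest gaps between peaks are set beside them as stretches that the peaks left out.
chr3:11254126-11254276: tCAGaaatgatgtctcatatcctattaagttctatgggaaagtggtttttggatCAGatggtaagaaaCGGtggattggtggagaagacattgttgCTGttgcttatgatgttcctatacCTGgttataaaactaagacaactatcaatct
chr3:15758691-15758841: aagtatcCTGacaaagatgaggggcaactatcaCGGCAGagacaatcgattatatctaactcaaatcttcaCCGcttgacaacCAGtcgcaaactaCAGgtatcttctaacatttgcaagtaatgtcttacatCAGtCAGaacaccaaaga
chr3:15198277-15198427: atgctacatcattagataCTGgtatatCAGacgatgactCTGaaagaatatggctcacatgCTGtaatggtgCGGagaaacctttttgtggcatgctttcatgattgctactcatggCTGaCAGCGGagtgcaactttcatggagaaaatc

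These 3 windows lie in the protein-coding genes PHS1, DCL3 and AT3G43220, and held 5, 8 and 8 CHG words. Over all 806 summits, windows of 151 bases held a median of 6 such words, and 98.3% held at least 1. Over 13733 windows of the same length in the pericentromere that touched no peak, the median was 3, and 89.4% held at least 1. The bases inside peaks were also richer in G and C, with 40.9% GC, against 32.0% outside peaks, and CHG words were found 36.3 and 22.7 times per kb inside and outside peaks.

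Peaks covered 54.4% of the bases of the pericentromere and 2.23% of the bases of the chromosome 3 arms, a ratio of 24.4. The pericentromere makes up 20.5% of the chromosome and held 86.3% of its covered bases. Peaks were 168 per Mb in the pericentromere and 10.2 per Mb in the arms, where 191 peaks were called. A single peak was much alike in both: the median width was 1004 bp in the pericentromere and 1016 bp in the arms, and the median fold enrichment, the authors' ratio of signal over background at the summit, was 2.56 and 2.75. The pericentromere held 56 of the peaks of at least 10 kb, and the arms 3. The pericentromeres of chromosomes 1, 2, 4 and 5 were covered to 54.3%, 49.8%, 69.0% and 54.9%, so chromosome 3 lay among them, with more peaks per Mb than any of the other 4, which ran from 128.5 (chromosome 1) to 152 (chromosome 2).

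Covered bases were held by few, wide peaks. Widths ran to 106331 bp, with quartiles of 447 and 3331 bp. The 237 peaks under 500 bp were 29.4% of the peaks and held 3.13% of the covered bases, while the 56 peaks of at least 10 kb were 6.95% of the peaks and held 46.1%. The median fold enrichment was 2.06 for peaks under 500 bp and 6.06 for those of at least 10 kb, and over the 806 peaks width and fold enrichment had a Spearman rho of 0.80. Peaks of 1 library are not independent of each other, and this is a description only.

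**Figure D1:**
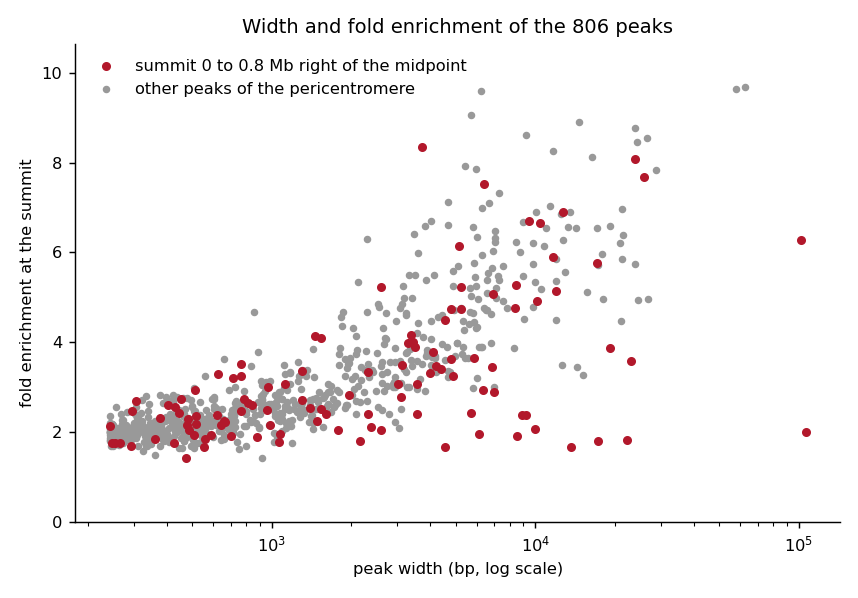
Each point is 1 of the 806 peaks, by width (bp, log scale) and the authors' fold enrichment at the summit, with peaks whose summit lies 0 to 0.8 Mb right of the midpoint of the pericentromere in red and the others in grey. Fold enrichment is higher in wider peaks, except for 10 peaks of at least 5 kb and a fold enrichment under 2.5, all of them red.

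The widest peak, chr3:13848597-13954927, had a fold enrichment of only 2.01 and a −log10 q-value of 28.7. The next, chr3:13594623-13696853, was 102231 bp wide with a fold enrichment of 6.29. These 2 peaks overlapped 14 and 18 pseudogene loci and no protein-coding gene. Peak chr3:12488818-12551357, 62540 bp wide, had the highest fold enrichment of all, 9.67, and overlapped 14 pseudogene loci and the protein-coding loci AT3G30805 and AT3G30820, the second annotated as a retrotransposon ORF-1 protein. Peak chr3:13391386-13449267, 57882 bp wide, was second in fold enrichment with 9.65, and chr3:15133878-15162603, 28726 bp wide, had 7.83.

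The other peaks of the highest fold enrichment were narrower. Peak chr3:12479202-12485411 had 9.60, chr3:12614152-12619861 had 9.07 and chr3:14813120-14827823 had 8.91, with summits in pseudogene loci AT3G30802, AT3G30846 and AT3G42718. The lowest fold enrichments were 1.43 at chr3:12651149-12652068, 1.43 at chr3:14205485-14205956 and 1.501 at chr3:11487778-11488138, in peaks of 920, 472 and 361 bp. The smallest −log10 q-value among the 806 was 1.37, a q-value of 0.0429.

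Along the pericentromere the cover formed a plateau with a raised core and thin rims. In 48 bins of 100 kb, the share inside peaks ran between 0% and 99.9%, with a median of 56.8%. It was over 50% in 27 bins, over 90% in 5 and under 20% in 6. For description the stretch was divided after its values were seen. The core, chr3:13500001-14300000, was covered to 86.2%, and the middles on its left and right to 62.2% and 56.3%. The left rim, chr3:11100001-12000000, was covered to 22.4% and the right rim, chr3:15600001-15900000, to 18.0%. Protein-coding genes took 3.71% of the core, 19.6% of the left rim and 26.6% of the right rim, and pseudogene loci 34.3%, 22.3% and 18.1%.

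**Figure D2:**
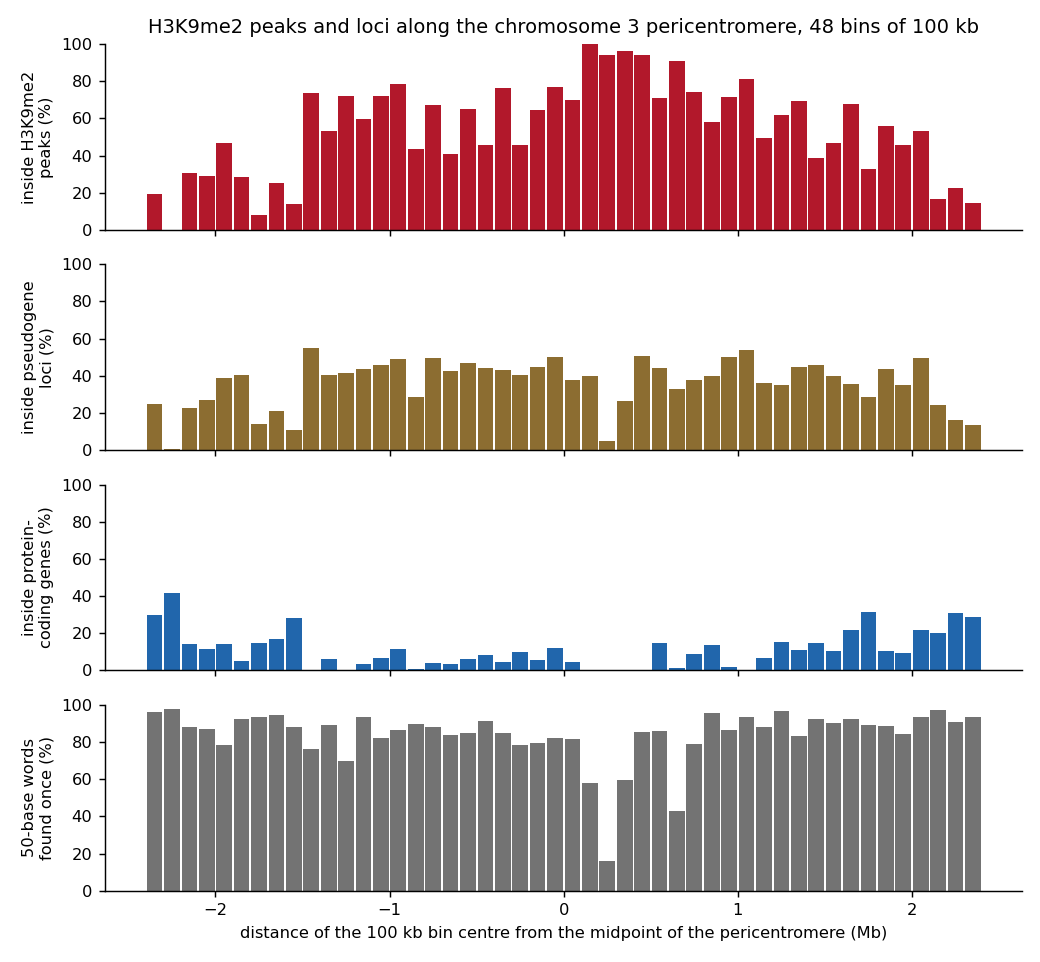
Bars give, for each of 48 bins of 100 kb and by distance of the bin centre from the midpoint of the pericentromere (Mb), the percent of bases inside peaks, inside pseudogene loci and inside protein-coding genes, and the percent of 50-base words that occur once in the reference. The cover of peaks is highest 0.15 Mb right of the midpoint, at 99.9%, where no protein-coding gene is drawn. The bin 2.25 Mb left of the midpoint has no base inside a peak, and protein-coding genes take 41.5% of it.

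Over the 48 bins, the share inside peaks and the share inside protein-coding genes had a Pearson r of −0.73 and a Spearman rho of −0.68. Bins are neighbours on 1 chromosome in 1 library, and low gene density set the borders, so these too are descriptions.

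The core also held sequence that a read of 50 bases could match in several places. In the bin centred 0.25 Mb right of the midpoint, 93.8% of bases lay inside peaks, and 16.2% of the words of 50 bases occurred once in the reference. In the whole pericentromere, the share of words found once was 77.4% inside peaks and 92.3% outside them, and in the arms 97.1%. Of the 33 peaks of at least 5 kb with a summit 0 to 0.8 Mb right of the midpoint, 10 had a fold enrichment under 2.5, and elsewhere in the pericentromere 0 of 109 peaks of that width did. In these 10 peaks a median of 20.1% of the 50-base words were found once and a median of 56.1% of bases lay in tandem repeats. The other 23 wide peaks of the same stretch had medians of 75.8% and 0%. How reads with several matches were placed is not given in the sources used here, and the part of repeated sequence in these fold enrichments was not tested.

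Tandem repeats were looked for as windows of 500 bases in which over 70% of the bases recur at a fixed distance. They were found in 100 stretches that held 172050 bases, of which 89.2% lay inside peaks. The main class, 65 stretches with a period of 480 to under 520 bases, held 141148 bases, 95.9% of them inside peaks, and 0 of the 65 lay wholly outside. Its largest cluster, chr3:13682304-13797042, had a median period of 505 bases and was covered to 95.6%. A second class, 12 stretches with a period of 178 to 185 or 355 to 356 bases, held 12416 bases, 97.6% of them inside peaks. It was grouped by period alone and may pool unlike repeats. The 23 stretches of other periods were covered to 33.8%, with 13 wholly outside peaks, so cover differed between the classes.

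A unit of each main class is printed, since nearly all bases of both classes lay inside peaks. Tandem stretches made up 14.6% and 16.3% of the 2 widest peaks and 0% of the next 3 in width. The 178-base repeats are neighbouring units of a stretch that lay wholly inside peaks, and 97.8% of their bases were the same. A period of 178 bases is also that of the centromeric satellite of this species, but the match was made by length alone.
chr3:13590671-13590848: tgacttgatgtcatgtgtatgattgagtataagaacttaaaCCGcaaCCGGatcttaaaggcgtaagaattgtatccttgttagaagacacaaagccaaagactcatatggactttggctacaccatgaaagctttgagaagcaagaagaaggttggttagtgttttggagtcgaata
chr3:13590849-13591026: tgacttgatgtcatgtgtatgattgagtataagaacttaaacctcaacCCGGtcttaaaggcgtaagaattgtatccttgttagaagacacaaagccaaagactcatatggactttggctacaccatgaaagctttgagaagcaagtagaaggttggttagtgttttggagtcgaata
The longer repeat is given by the first 300 bases of a unit of 510 bases, whose next copy has the same base at 99.2% of positions. The annotation used names neither repeat, and the longer one was not compared with rRNA gene sequences.
chr3:13598691-13598990: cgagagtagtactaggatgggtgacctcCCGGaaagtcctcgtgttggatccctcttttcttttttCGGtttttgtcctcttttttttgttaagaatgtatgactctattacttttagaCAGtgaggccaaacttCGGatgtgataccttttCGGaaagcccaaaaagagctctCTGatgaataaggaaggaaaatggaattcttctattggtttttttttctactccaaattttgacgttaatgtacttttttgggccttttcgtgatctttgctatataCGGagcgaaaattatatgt

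Peaks no more than 1 kb apart were joined into domains, which gave 291 domains, 113 of them of 1 peak. Of the 805 gaps between peaks, 515 were at most 1 kb, so most neighbouring peaks lay close together. The median domain was 4504 bp long. The 78 domains of at least 10 kb held 76.4% of the covered bases.

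The 2 longest domains lay in the core. The first, chr3:13594623-13798907, was 204285 bp long, joined 18 peaks and held 19 whole pseudogene loci and no protein-coding gene. The second, chr3:13843332-13987597, was 144266 bp long, with 22 pseudogene loci and no protein-coding gene. The next 3 were chr3:12488818-12557865 with 69048 bp, chr3:12171642-12233720 with 62079 bp and chr3:13389502-13449267 with 59766 bp. Inside them lay 15, 17 and 14 whole pseudogene loci, against 2, 0 and 1 protein-coding genes.

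**Figure D3:**
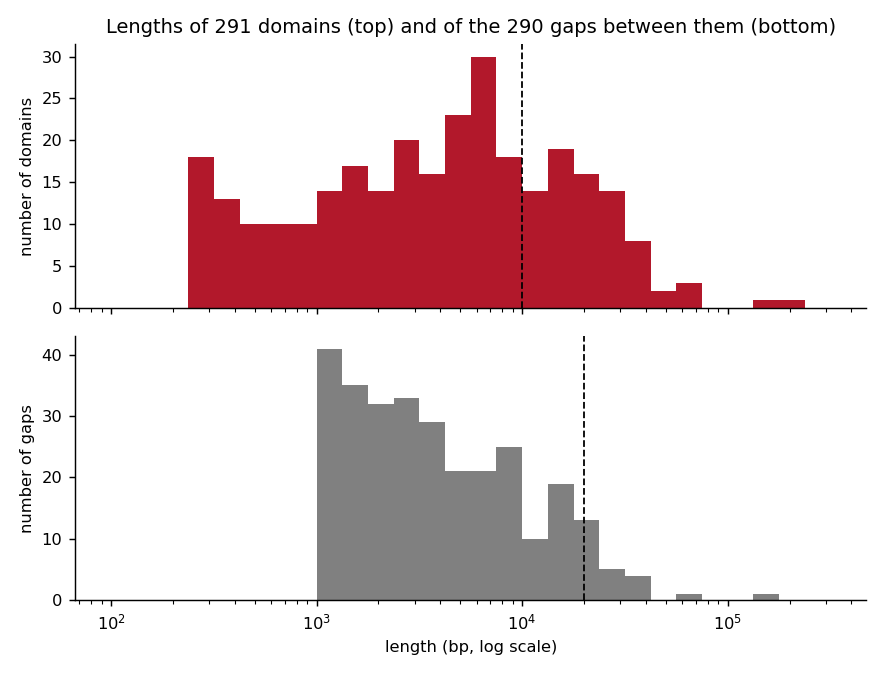
Histograms of the lengths (bp, log scale) of the 291 domains, top, and of the 290 gaps between them, bottom, with dashed lines at 10 kb for domains and 20 kb for gaps. The domains reach 204285 bp and the gaps 135246 bp, and gaps begin just over 1 kb because closer peaks were joined.

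The 290 gaps between domains had a median length of 3303 bp, and 18 were at least 20 kb long. All 18 held at least 1 whole protein-coding gene, 89 genes together. Of the 183 gaps under 5 kb, 9 did, and of the 89 gaps of 5 kb to under 20 kb, 51 did. A longer gap has more room for a whole gene, so these counts also follow length. Protein-coding genes took between 8.61% and 62.5% of the bases of each of the 18 long gaps, against 11.2% of the whole pericentromere. The long gaps gathered at the rims, with 12 of the 18 beginning within 900 kb of the left border and 2 within 300 kb of the right border.

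The longest gap, chr3:11186578-11321823, was 135246 bp long and held 24 protein-coding genes and 2 pseudogene loci. Among its genes were PHS1, a starch phosphorylase, AHP2, a phosphotransmitter of cytokinin signalling, UGD2, which makes UDP-glucuronic acid for the cell wall, EXO70E1, a subunit of the exocyst, and RIK, an RNA-binding KH protein. The gap chr3:15730360-15787171, 56812 bp long, held 11 protein-coding genes. One of them was DCL3, the Dicer that makes small interfering RNAs for RNA-directed DNA methylation. The gap chr3:15177299-15219405, 42107 bp long, held 7, with SUS4, a sucrose synthase, and TES, a kinesin needed for cytokinesis of the male meiotic products. The gap chr3:11734654-11770691, 36038 bp long, held 2 protein-coding genes, AT3G29830, an F-box/RNI-like gene, and AT3G29970, a B12D gene, beside transcribed pseudogenes and RNA loci such as MIR8183. The gap chr3:15651754-15687613, 35860 bp long, held ZIFL2, a transporter of the facilitator superfamily, GSTU27, a glutathione transferase, and CAM7, a calmodulin.

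Pseudogene loci were covered and protein-coding genes mostly spared. Of 708 pseudogene loci with their midpoint in the pericentromere, 629 had at least 1 base inside a peak, 88.8% (95% Wilson interval 86.3 to 91.0), where 83.1% of the pseudogene loci of the whole genome did. Of 292 protein-coding genes, 90 did, 30.8% (25.8 to 36.3), where 2.53% of the genes of the whole genome did. The intervals cover the counting error of loci only. In the arms of chromosome 3 the shares were 59.4% of 170 pseudogene loci and 1.03% of 5168 protein-coding genes. In the other 4 pericentromeres they were 90.4% (89.0 to 91.6) of 1919 pseudogene loci and 23.4% (20.7 to 26.4) of 841 genes. For both kinds the interval of chromosome 3 overlapped that of the other 4 pooled, which is no test of a difference. The share of genes was highest on chromosome 3, followed by 27.3% on chromosome 4. Taken singly, chromosome 5 had a lower share of genes, 18.5% (14.1 to 23.8), and chromosome 4 a higher share of pseudogene loci, 95.2% (92.8 to 96.8), with intervals that did not overlap those of chromosome 3. That is no test either, since neighbouring loci under the same peak are not independent. The borders also matter: the share of genes on chromosome 3 was 43.6% with borders 500 kb narrower on each side and 21.3% with borders 500 kb wider.

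**Figure D4:**
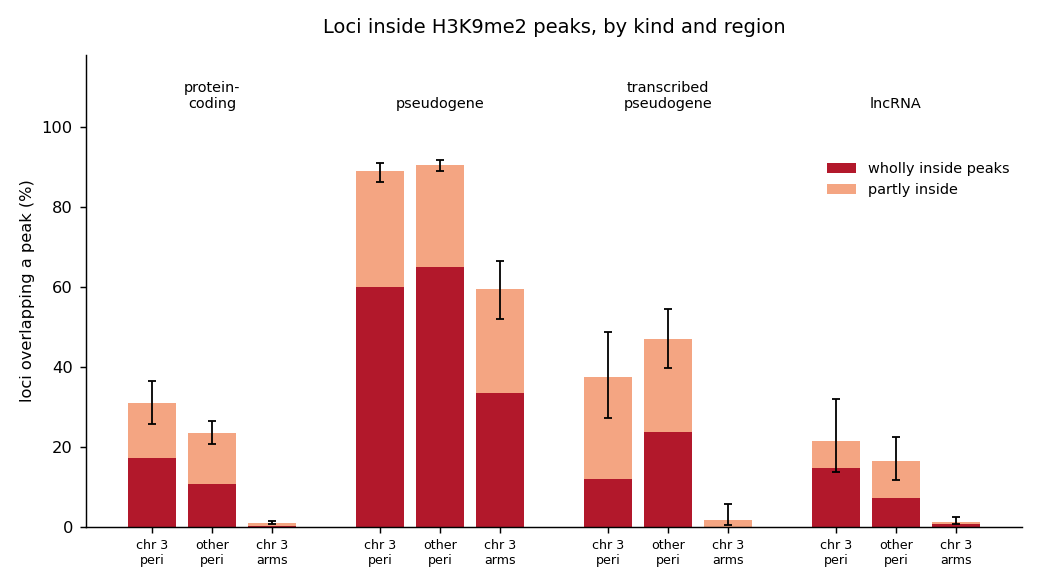
Bars give the percent of loci of each kind that lay wholly (dark) or partly (light) inside peaks, in the chromosome 3 pericentromere, the other 4 pericentromeres and the chromosome 3 arms, with 95% Wilson intervals for the sum. In the chromosome 3 pericentromere the sums are 88.8% for pseudogene loci, 37.3% for transcribed pseudogenes, 30.8% for protein-coding genes and 21.3% for lncRNA loci.

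The extent of cover differed as well. Of the pseudogene loci, 424 lay wholly inside peaks (55.3% of those of the whole genome did), 205 partly and 79 outside. Of the protein-coding genes, 50 lay wholly inside (1.11% in the whole genome), 40 partly and 202 outside. At least 50% of the locus was covered in 82.1% of the pseudogene loci and 25.0% of the genes, where 77.6% and 1.94% were so in the whole genome. Counted by bases, 83.5% of the pseudogene loci and 15.9% of the protein-coding genes were covered. Peak summits fell in pseudogene loci in 460 of the 806 cases and in no annotated locus in 268. They fell in coding exons of protein-coding genes in 36, in introns of these genes in 13 and in their UTRs in 2. Transcribed pseudogenes held 21 and RNA loci 6. Of the bases of the pericentromere, pseudogene loci took 36.1% and protein-coding genes 11.2%. At least 1 pseudogene locus was touched by 519 peaks (64.4%) and at least 1 protein-coding gene by 85 (10.5%), and 230 (28.5%) touched neither.

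Transcribed pseudogenes overlapped a peak in 28 of 75 cases, 37.3% (27.3 to 48.6), where 17.8% did in the whole genome, and lncRNA loci in 16 of 75, 21.3% (13.6 to 31.9), where 2.7% did. Wholly inside peaks lay 9 of the transcribed pseudogenes (9.5% in the whole genome) and 11 of the lncRNA loci (1.29%). The 2 annotated rRNA loci, the 18S rRNA AT3G41768 at chr3:14197677-14199484 and the 5.8S rRNA AT3G41979, were wholly covered, as was 1 of 4 miRNA loci, MIR5642a. The 3 other miRNA loci, the 1 tRNA and the 1 snoRNA had no base inside a peak. The 1 locus annotated as ncRNA was wholly covered. In the arms of chromosome 3, 2 of 46 miRNA, 0 of 91 tRNA, 0 of 46 snoRNA and 1 of 42 ncRNA loci overlapped a peak. In the other 4 pericentromeres 12 of 26, 4 of 7, 2 of 3 and 3 of 15 did. Shares of these kinds over the whole genome were not counted, and the counts here are too small to compare. The 5.8S locus is printed because rRNA genes are highly transcribed elsewhere in the genome, and reads from such copies and from this one share their sequence.
chr3:14199753-14199916: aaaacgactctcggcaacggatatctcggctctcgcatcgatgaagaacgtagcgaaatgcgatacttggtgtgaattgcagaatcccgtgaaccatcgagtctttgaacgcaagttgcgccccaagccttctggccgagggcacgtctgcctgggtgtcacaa

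Genes that carry a symbol, given mostly to genes that have been studied, were nearly all spared, here as in the whole genome. Of 52 such genes 1 overlapped a peak, 1.92% (0.340 to 10.12), where 0.366% of genes with a symbol did in the whole genome. Of 240 genes without a symbol 89 did, 37.1% (31.2 to 43.4), where 3.84% did in the whole genome. The exception was MEE38, named for a maternal effect on embryo arrest, whose 1665 bp at chr3:15166561-15168225 lay wholly inside a peak. Covered genes were also shorter in the median than spared ones. The median length was 776 bp for genes wholly inside peaks, 1365 bp for those partly inside and 1668 bp for those outside. Of the 46 genes of at least 3 kb, 5 overlapped a peak, and of the 38 under 500 bp, 18 did. Shares by length over the whole genome were not counted, so these are not set against genes elsewhere.

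The longest genes wholly inside peaks were AT3G32400 (3636 bp), a protein with the actin-binding FH2 domain of formins, AT3G43148 (3129 bp), a myosin heavy chain-like protein, and AT3G42723 (2798 bp), an aminoacyl-tRNA ligase-like protein. Next came the myosin heavy chain-like genes AT3G42060 (2670 bp) and AT3G30230 (2554 bp), and AT3G31950 (2481 bp), a nucleic acid and zinc-binding protein. After MEE38 followed AT3G29765 (1611 bp) and AT3G29763 (1518 bp), neighbours annotated as General transcription factor 2-related zinc finger proteins, and AT3G29750 (1476 bp), an aspartyl protease. AT3G32400 was 1 of 3 FH2 genes, with AT3G32410 and AT3G32420, that lay wholly inside peaks within 18473 bp of each other. These 3 genes were singled out after their values were seen.

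Gene families were counted by the words of their descriptions, without a test between them, and most have few members here. Of 69 genes called hypothetical or uncharacterized, 33 overlapped a peak (10.4% in the whole genome). Of 7 named as transposon, retrotransposon, retroelement or transposase, 4 did (48.8% in the whole genome), and of 5 CCHC zinc knuckle genes 3 did (24.3%). The 1 gene of the Ulp1 protease family, AT3G31910, overlapped a peak with 26.0% of its length (77.8% of the family in the whole genome overlapped one). All 8 myosin heavy chain-like genes lay wholly inside peaks, where 50% of those of the whole genome overlapped one, and 5 of 6 General transcription factor 2-related genes overlapped a peak, where 80% did in the whole genome. These 2 families were chosen after their values were seen.

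Of 10 F-box genes, which name substrates for ubiquitin ligases, 2 overlapped a peak (3.07% in the whole genome), and of 5 kinase genes 1 did (0.929%). None of 4 transporter genes (0.164% in the whole genome), 4 pentatricopeptide genes (0.658%), 3 cytochrome P450 genes (0.787%), 2 ribosomal protein genes (1.43%), 2 histone-related genes (0%) or 2 transmembrane protein genes (0.521%) had a base inside a peak. The 1 gene of the Cysteine/Histidine-rich C1 family had none either (3.38%), and the stretch held no disease resistance gene by its description (2.69%). Of 18 genes named as transcription factors, zinc fingers, MYB, WRKY, bHLH or AGAMOUS-like, 8 overlapped a peak (1.58% in the whole genome). Of these 8, 5 were the General transcription factor 2-related genes. The others were AT3G32090, a WRKY gene covered over 89.4% of its length, AT3G32904, a Myb/SANT-like gene covered over 41.2%, and AT3G29794, a zinc finger MYM-type-like gene covered over 73.9%.

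The genes outside peaks lay at varied distances from them. The median distance from a spared gene to the nearest peak was 4346 bp (quartiles 1657 and 8916), and 36 of the 202 had a peak within 1 kb. In 31 of the 202 both flanking peaks lay within 5 kb, while the median space between the flanking peaks of a spared gene was 19437 bp. The narrowest space was that of AT3G43630, a gene of the vacuolar iron transporter family of 603 bp, in 1988 bp between peaks.

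Of the longest spared genes with a symbol, ATMIN7 came nearest to a peak. This gene, an ARF guanine nucleotide exchange factor of vesicle traffic and immunity, spans 11437 bp at chr3:15233845-15245281, and a peak 23868 bp wide with a fold enrichment of 8.77 ended 431 bp upstream of its start. A peak of fold enrichment 3.07 began 2272 bp downstream of its end. ABCG38 (6623 bp), an ABC transporter, had a peak of fold enrichment 3.32 at 2568 bp upstream and one of 6.91 and 13582 bp width at 4489 bp downstream. AAO2 (5714 bp), an aldehyde oxidase, had peaks at 7407 bp upstream (4.404) and 2811 bp downstream (1.89). DCL3 (7473 bp) had its nearest peak 23027 bp upstream, with a fold enrichment of 2.02. SUS4 (5096 bp) and CHR38 (4832 bp), a chromatin remodeler of the SNF2 family, had a peak 1711 and 1900 bp away, ZIFL2 (4808 bp) at 3565 bp and TES (5430 bp) at 13487 bp. RIK (5280 bp) and PHS1 (5008 bp) lay 27049 and 64009 bp from the nearest peak.

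**Figure D5:**
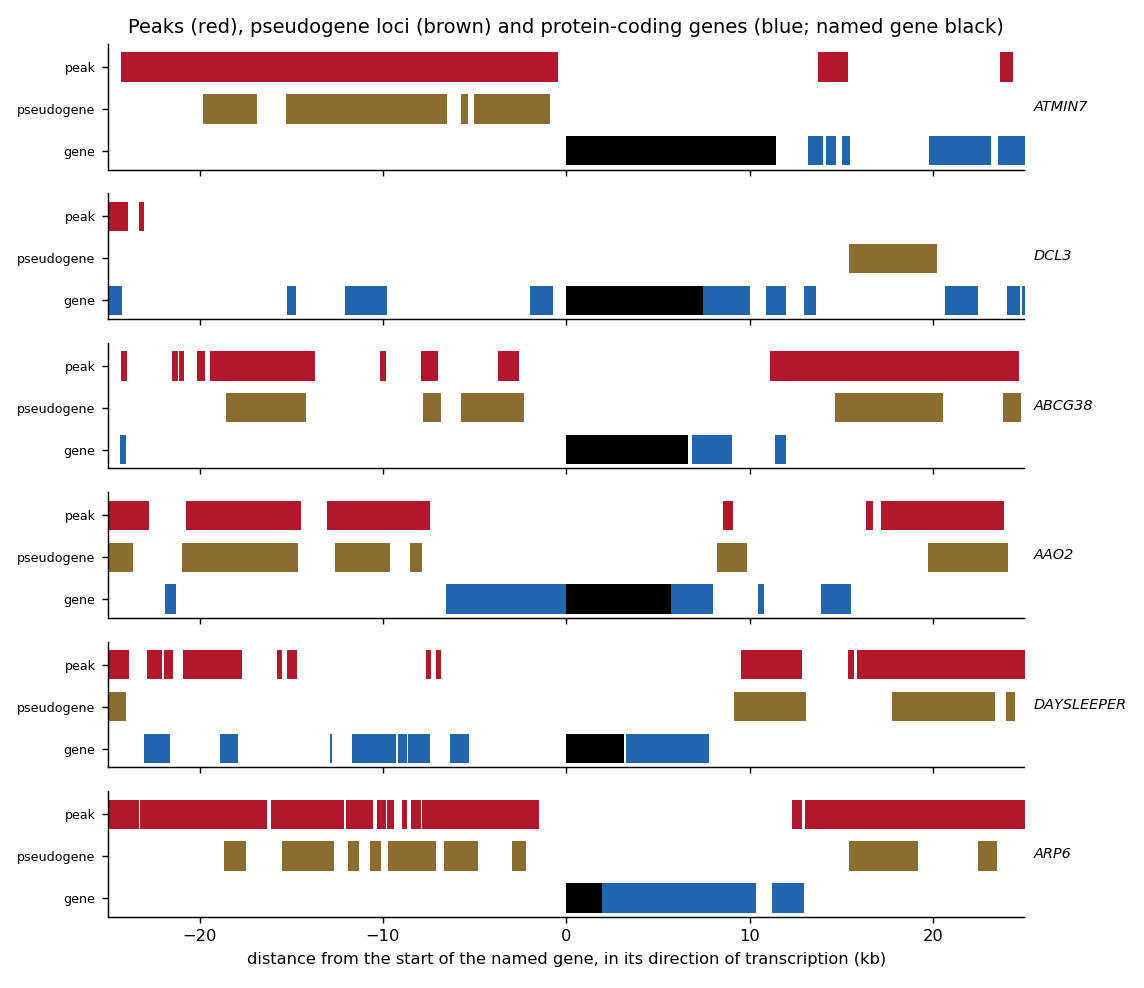
Peaks (red), pseudogene loci (brown) and protein-coding genes (blue, the named gene black) within 25 kb of the start of 6 spared genes, by distance in the direction of transcription (kb). The peak upstream of ATMIN7 stops 431 bp before the gene, and around DCL3 no peak is drawn within 23 kb.

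Some further spared genes were picked after their values were seen. DAYSLEEPER (3127 bp), a gene of plants that descends from an hAT transposase and encodes a DNA-binding protein, had no base inside a peak, and its nearest peaks lay 6810 bp upstream and 6425 bp downstream. ARP6 (1933 bp), an actin-related protein of the SWR1 complex that deposits the histone variant H2A.Z, lay in the core with a peak of fold enrichment 7.52 at 1465 bp upstream. QQS (887 bp), a starch regulator known only from Arabidopsis thaliana, began 368 bp from a peak of 6887 bp with a fold enrichment of 6.03. HA8 (4225 bp), a plasma membrane proton pump, lay between peaks of fold enrichment 6.20 and 3.66 at 2862 and 1223 bp. The small cysteine-rich protein genes LCR33, LCR47 and LCR30 were outside peaks, with nearest peaks at 688, 1685 and 1433 bp. Among the 4 defensin-like or cysteine-rich genes the exception was AT3G33187, covered over 89.1% of its length, and 0.707% of such genes in the whole genome overlapped a peak.

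Genes partly inside peaks showed no one pattern. Of the 40, the start alone was covered in 10, the end alone in 9, both ends in 7 and neither in 14. In these genes 60.2% of exon bases and 43.9% of intron bases lay inside peaks. The longest was AT3G32280, an ATP-dependent helicase family gene of 6323 bp with 8.08% of its length covered. Next were AT3G30320 (3408 bp, 99.9%), which is uncharacterized, AT3G42550 (3408 bp, 84.9%), an aspartyl protease, AT3G42770 (2962 bp, 83.3%), an F-box gene, and AT3G30770 (2793 bp, 69.5%), an aspartyl protease.

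Pseudogene loci of all lengths were mostly covered. Of 224 loci of at least 3 kb, 94.6% overlapped a peak and 52.7% lay wholly inside peaks. Of the 47 loci under 500 bp, 83.0% overlapped a peak and 74.5% lay wholly inside. A longer locus has more bases that can meet a peak and more that can lie outside one. The longest wholly inside peaks were AT3G42256 (9166 bp), AT3G30749 (8989 bp), AT3G43304 (8751 bp), AT3G30668 (8698 bp) and AT3G29615 (8174 bp). AT3G43304 lay in the wide peak upstream of ATMIN7. The longest outside peaks were AT3G43955 (4810 bp), AT3G29156 (4725 bp), AT3G43825 (4482 bp), AT3G29776 (4477 bp) and AT3G30737 (4407 bp), and AT3G43955 lay in the same gap as DCL3. The annotation gave no description for 702 of the 708, so they could not be sorted by kind of element.

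Direct repeats at a distance, such as long terminal repeats of retrotransposons leave, were looked for instead, but a pair alone does not tell the kind of element. Within 15 kb, 141 pairs of direct repeats of at least 300 bases and 80% identity were found outside tandem repeats. Of these pairs, 66 lay wholly inside peaks, 59 partly and 16 outside, and 80.5% of their bases were covered. A pseudogene locus was overlapped by 108 of the 141. The pair chr3:14309161-14321269 overlapped 5 protein-coding genes and no pseudogene locus, so not every pair need be a retrotransposon. In 16 pairs both repeats began with TG and ended with CA, as long terminal repeats do. These 16 spanned 4231 to 13927 bp, 15 held a pseudogene locus, and 91.9% of their bases were covered, with 6 wholly inside peaks and 0 wholly outside.

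Several summits of the highest fold enrichment fell within such pairs. The pair chr3:13403172-13412098, with repeats of 1189 and 1177 bases at 96.0% identity, held the summit of fold enrichment 9.65 and the loci AT3G32880 and AT3G32890. The pair chr3:14813281-14827207, with repeats of 1692 and 1746 bases at 92.7% identity, held the summit of 8.91. The ends of the left and then of the right repeat of the first pair are printed, with the outer TG and CA in capitals.
chr3:13403172-13403211: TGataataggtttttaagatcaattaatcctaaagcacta
chr3:13404321-13404360: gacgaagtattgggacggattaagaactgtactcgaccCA
chr3:13410922-13410961: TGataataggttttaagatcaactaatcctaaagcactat
chr3:13412059-13412098: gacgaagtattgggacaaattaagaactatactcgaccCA

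Some pairs of high identity were covered in part. The pair chr3:11664969-11669787 had repeats of 374 bases at 100% identity and was covered to 59.2%, with a highest fold enrichment of 2.64. The pair chr3:12913470-12917700, with repeats of 1745 and 1748 bases at 98.3% identity and no pseudogene locus, was covered to 20.3%. A stretch of 5079 bases like the plastid genome, at 93.6% identity, lay at chr3:13536429-13541507 and was covered to 50.8%.

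The label was checked against loci outside the stretch as well. None of 6 genes used as steady controls (ACT2, ACT7, UBQ10, PP2AA3, TUB2 and AT5G60390) had a base inside a peak, and 2 of 4 loci usually silenced did. The retrotransposon locus AT1G37110 and the Mutator-like locus AT4G08680 were wholly covered. SDC and FWA, whose silencing rests on repeats at their promoters, had no base of the annotated locus inside a peak. Sequence upstream of these loci was not looked at, so nothing is said of repeats that lie there. Of 8 genes of the pathway (SUVH4, SUVH5, SUVH6, CMT2, CMT3, IBM1, MET1 and CHR1, also called DDM1) none had a base inside a peak. In the whole genome 2.53% of protein-coding genes and 83.1% of pseudogene loci overlapped a peak. Most short lists of genes would thus be free of peaks, so these counts say little about the label.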

How the data were processed

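H3K9me2 ChIP-seq of flower buds was used as the peak list that the authors deposited, without read counts, so the depth of the library is unknown. The submitters' processing notes name Bowtie 1.1.2, SAMtools, MACS2 2.1.1 and TAIR10. The control, the thresholds and the mapping settings are not given in the sources used here. The deposited fold enrichment is a ratio of signal over background at the summit. Each peak also carries the deposited −log10 of its p-value and of its q-value, and a deposited score equal to 10 times the −log10 q-value without its decimals, with 1 exception. Positions and the summit's offset complete the list.

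No peak ran past the chromosome ends of TAIR10.1, and its RefSeq sequence and annotation gave loci and sequences. Each pericentromere was the longest stretch of neighbouring 100 kb bins in which the protein-coding share of bases, averaged over 5 bins, stayed below 50% of that chromosome's median. A peak belonged to the stretch by its summit, a locus by its midpoint, and 1 shared base counted as overlap. Domains joined peaks at most 1 kb apart. Repeats were found by self-comparison and with blastn 2.17.0, and 50-base words were counted on both strands. Items were named by a rule: the widest peaks, the highest and lowest in fold enrichment, the longest domains and gaps, and the longest covered and spared loci. Gene families were taken by words of the annotation. Members, lists and alternatives were chosen with earlier results of these data known. The alternatives changed the minimum fold enrichment, the minimum width, the borders, the joining distance and the overlap rule. Python 3.11.15, NumPy 2.4.6, pandas 2.3.3 and SciPy 1.17.1 were used, and the main steps were tested on simulated data. Shares have 95% Wilson intervals, which cover counting error only.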

Additional observations from a re-analysis of the deposited data

How the results depend on the processing

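With 1 library no replicate could be left out, and the ratio of covered shares has no interval, so every change of it is given. Keeping only peaks at or above the median fold enrichment of the whole list moved the covered share of the pericentromere to 44.6%, the ratio over the arms to 22.3, protein-coding genes to 21.6%, pseudogene loci to 78.0% and gaps of at least 20 kb to 33. Peaks at or above its upper quartile gave 34.5%, 23.0, 13.0%, 56.4% and 50. Peaks of at least 500 bp gave a covered share of 52.7%, a ratio of 24.9 and 85.5% of pseudogene loci. Borders 500 kb narrower on each side gave 61.4%, 17.4, 43.6%, 91.4% and 10, and borders 500 kb wider gave 46.5%, 24.9, 21.3% of genes and 34 gaps. Merging peaks within 1 kb gave a covered share of 57.6% and a ratio of 25.0. Asking for 50% of a locus inside peaks gave 25.0% of genes and 82.1% of pseudogene loci. Counting transcribed pseudogenes as pseudogene loci, an alternative chosen after seeing the data, gave 83.9%. The number of domains of at least 10 kb stayed between 55 and 78. The cause of each shift was not tested. In every setting pseudogene loci were covered more often than protein-coding genes. No paired analysis was possible because the series holds 1 H3K9me2 library with deposited peaks, and no result here comes from a test.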
